A study of Homo sapiens with 3 samples.

Results

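The adhesion G protein-coupled receptors were chosen by symbol, as the protein-coding genes whose name is ADGR followed by a letter and a number. The rule found 29 genes among the 58735 gene rows of the count tables, of which 19951 are protein-coding. Their RNA was measured by sequencing in 3 established cell lines of human prostate cancer, each represented by 1 library. LNCAP, grown from a lymph node metastasis, is the androgen-dependent line of the design. PC3, from a bone metastasis, and DU145, from a brain metastasis, are its castration-resistant lines, meaning that they grow without androgen. The labels name no drug, genetic change or time point for any of the 3 lines, all of which were kept in medium with 10% fetal bovine serum at 37 °C and 5% CO2.

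Adhesion receptors combine a long extracellular part, built from domains that bind matrix or other cells, with the membrane-spanning bundle typical of G protein-coupled receptors. Many cut themselves at a site next to the membrane, and the freed end of the remaining stretch can then switch on the receptor. Members are best known from synapses, myelination, blood vessels, the inner ear and leukocytes, and several have been studied in tumours.

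The libraries held 15319045 to 15878546 counts, and 3 counts, the limit that a count of 0 allows, corresponded to 0.189 to 0.196 CPM, the count scaled to a common library size. There were no replicates, so no difference below has a replicate check, and the line, its class and its library cannot be told apart. The intervals given are exact 95% counting intervals and cover counting error only. The luminal prostate marker genes summed to 5743 normalised CPM in LNCAP, with 397.5 in PC3 and 18.25 in DU145, and KLK3, the gene of prostate-specific antigen, had 35507 counts in LNCAP and none in the other 2 libraries. HOXB13 went against this list, with 5140, 5909 and 0 counts, and made up 386.6 of the 397.5 CPM in PC3. The epithelial markers EPCAM, KRT8, KRT18 and CDH1 had counts in all 3 libraries, at 1524, 457 and 1753 summed normalised CPM. They did not move alike. CDH1 had 12285, 34 and 2269 counts, and PC3 was 353-fold below LNCAP (253 to 510). EPCAM had 964, 115 and 1092, and PC3 was 8.20-fold below LNCAP (6.75 to 10.0). KRT8 and KRT18, at 257.6 and 189.5 CPM, made up most of the PC3 sum. In bulk RNA, fewer cells with a transcript and less of it per cell cannot be told apart.

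Each line held 10 to 13 of these receptors at 1 normalised CPM or more, and the receptors that led the family differed between PC3 and the other lines. Of the 29 members, 15 (51.7%) reached 1 CPM in at least 1 library, against 70.8% of all protein-coding genes. In normalised CPM, which also carry the TMM scaling between libraries, 13 members were at 1 or more in LNCAP, against 12 in PC3 and 10 in DU145, and 8 were so in all 3. These 8 were ADGRG6, ADGRL1, ADGRE5, ADGRG1, ADGRA3, ADGRV1, ADGRB2 and ADGRA2. On FPKM, which divides by gene length and so allows genes to be compared, 5 members were at 1 or more in LNCAP, with 8 in PC3 and 7 in DU145. The summed FPKM of the family was 139.4 in LNCAP, against 133.7 in PC3 and 129.6 in DU145, a much narrower range than that of most single members.

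**Figure D1:**
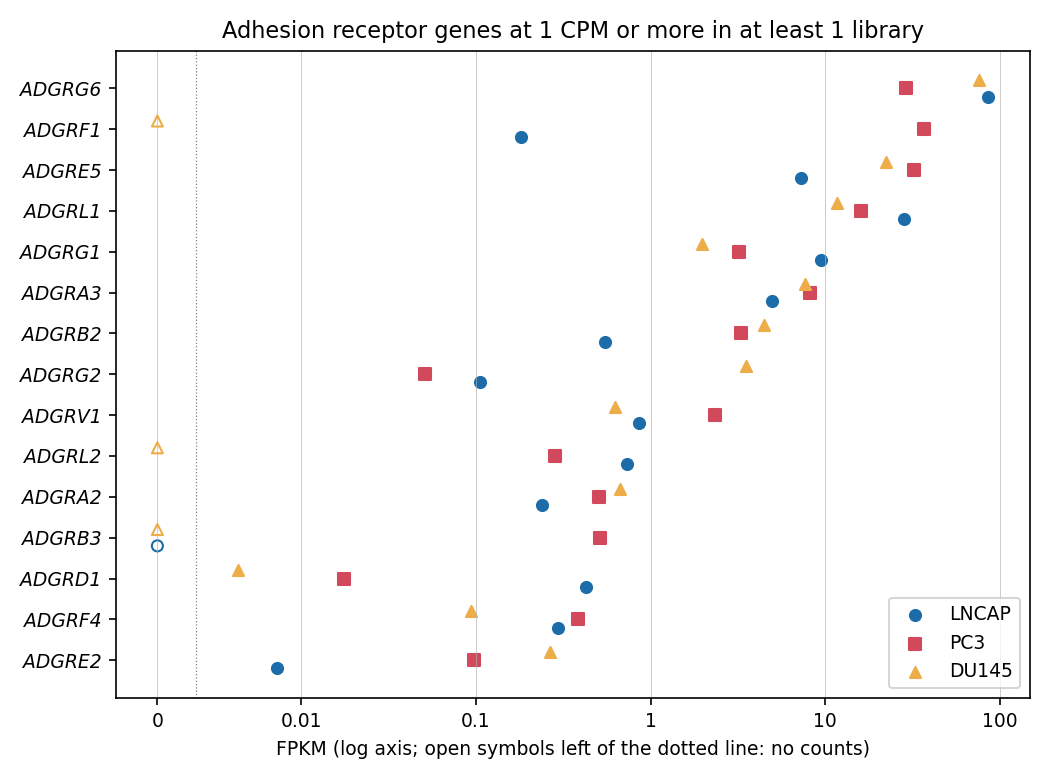
FPKM (log axis) of the 15 members that reached 1 CPM in at least 1 library, ordered by their highest value, with 1 symbol per library. ADGRG6 led in LNCAP and DU145 at 85.8 and 76.1 FPKM, while ADGRF1 led in PC3 at 37.0 FPKM and had no counts in DU145.

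ADGRG6, known as GPR126, is the receptor that Schwann cells need to form myelin, and type IV collagen, laminin-211 and the prion protein have been described as its ligands. It lies on chromosome 6 from 142301854 to 142446266 on the plus strand of GRCh38. It had 11575 counts in LNCAP, with 3811 in PC3 and 10115 in DU145, or 740, 249 and 646 normalised CPM. The LNCAP and DU145 levels were close and the PC3 level was the lowest: DU145 was 1.15-fold below LNCAP (1.12 to 1.18) and PC3 2.97-fold below it (2.86 to 3.08). On FPKM, ADGRG6 stood above 98.45% of protein-coding genes in LNCAP, against 92.6% in PC3 and 97.9% in DU145. It made up 61.6% of the family's summed FPKM in LNCAP, with 21.8% in PC3 and 58.7% in DU145. The Schwann cell and neural markers summed to 2.49, 2.16 and 8.04 normalised CPM, with S100B at 0 counts in every library and GFAP at 0, 4 and 90.

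ADGRF1, or GPR110, is a receptor for synaptamide, an amide of the fatty acid docosahexaenoic acid, and has been studied as a growth-promoting gene in several cancers. Its gene lies on chromosome 6 from 46997703 to 47042363 on the minus strand. It had 36 counts in LNCAP, against 7062 in PC3 and none in DU145, which is 2.30, 462 and 0 normalised CPM. The 3 levels were far apart, with PC3 200.6-fold above LNCAP (144.8 to 286.7) and at least 2413-fold above DU145. DU145 was at least 12.03-fold below LNCAP. In PC3 ADGRF1 was the leading member at 37.0 FPKM, 27.7% of the family's sum, and stood above 94.7% of protein-coding genes. In LNCAP it supplied 0.131% of that sum.

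ADGRG2, also called GPR64 or HE6, is best known from the epididymis, where it takes part in fluid handling. Its gene spans positions 18989309 to 19122637 of chromosome X on the minus strand. It had 17 counts in LNCAP, with 8 in PC3 and 558 in DU145, so that DU145 was the single library above 1 FPKM, at 3.50. DU145 was 32.75-fold above LNCAP (20.3 to 56.6), and PC3 was 68.0-fold below DU145 (34.3 to 158). LNCAP and PC3 could not be separated by counting error, at 2.08-fold (0.850 to 5.56).

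ADGRB3, a brain receptor that binds C1q-like proteins and acts in synapses and myoblast fusion and whose gene lies on chromosome 6 from 68635367 to 69389511 on the plus strand, had 51 counts in PC3 and none in LNCAP or DU145. PC3 was at least 17.4-fold above each of them. At 0.510 FPKM in PC3 it remained a low transcript.

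The 250 bases before the RefSeq start of these 4 genes (assembly GRCh38.p14) are shown as examples of the family's most abundant member and of members far above the other libraries in PC3 or DU145, with windows that differ in CpG content. Each window is written 5′ to 3′ on the strand of its gene, with CG dinucleotides in capitals. The first is chr6:142301757-142302006 on the plus strand, the second chr6:47042333-47042582 on the minus strand, the third chrX:19122469-19122718 on the minus strand and the fourth chr6:68635032-68635281 on the plus strand.
ADGRG6: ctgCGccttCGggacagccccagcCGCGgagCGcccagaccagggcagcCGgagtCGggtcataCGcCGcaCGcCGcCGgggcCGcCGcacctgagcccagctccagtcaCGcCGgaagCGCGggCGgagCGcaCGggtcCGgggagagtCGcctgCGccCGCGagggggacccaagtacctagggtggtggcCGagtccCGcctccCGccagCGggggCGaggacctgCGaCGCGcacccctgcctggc
ADGRF1: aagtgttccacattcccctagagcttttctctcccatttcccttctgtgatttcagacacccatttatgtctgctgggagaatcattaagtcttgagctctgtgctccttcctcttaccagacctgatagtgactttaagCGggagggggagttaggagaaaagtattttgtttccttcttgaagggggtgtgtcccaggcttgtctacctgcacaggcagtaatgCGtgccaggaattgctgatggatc
ADGRG2: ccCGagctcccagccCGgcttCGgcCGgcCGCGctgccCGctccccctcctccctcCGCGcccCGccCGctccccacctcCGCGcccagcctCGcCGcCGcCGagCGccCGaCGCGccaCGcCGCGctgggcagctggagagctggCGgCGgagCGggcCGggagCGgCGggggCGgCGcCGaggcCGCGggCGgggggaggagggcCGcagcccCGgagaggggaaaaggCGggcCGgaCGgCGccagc
ADGRB3: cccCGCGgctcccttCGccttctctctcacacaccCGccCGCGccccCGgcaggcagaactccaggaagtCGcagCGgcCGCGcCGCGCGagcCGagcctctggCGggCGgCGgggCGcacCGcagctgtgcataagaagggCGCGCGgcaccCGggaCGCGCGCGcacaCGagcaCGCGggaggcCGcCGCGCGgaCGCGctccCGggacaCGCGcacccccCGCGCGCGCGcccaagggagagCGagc
The ADGRF1 window held 2 CpG at 47.6% GC, whereas those of ADGRG6, ADGRG2 and ADGRB3 held 34, 42 and 46 at 77.6%, 84.8% and 79.2% GC. Over all 35116 RefSeq windows of this length the median was 11, with quartiles of 3 and 23. ADGRF1 and ADGRB3, the pair with PC3 well above both other libraries, were thus at opposite ends of this scale.

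RefSeq windows were at hand for 19 of the 29 members, 35 windows in all. Taking the window richest in CpG for each gene, the 10 genes that reached 1 CPM ranged from 1 to 46 with a median of 27.5, and the 9 others ranged from 2 to 32 with a median of 15. ADGRG1 was well transcribed with 6 or fewer CpG in each of its windows, and ADGRA1 had 32 and no counts in any library. The AP-1 motif TGANTCA, read on both strands, occurred in windows of 4 members, ADGRE3, ADGRF4, ADGRG1 and ADGRL4, and in 6.57% of all windows. The TATA motif TATAAA occurred in 1 of the 8 windows of ADGRL2 and in 10.7% of all windows. The forkhead motif TGTTTAC was found in no member's window and in 2.98% of all windows. These matches describe letters only, and the windows do not overlap every start that the genes may use.

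**Figure D2:**
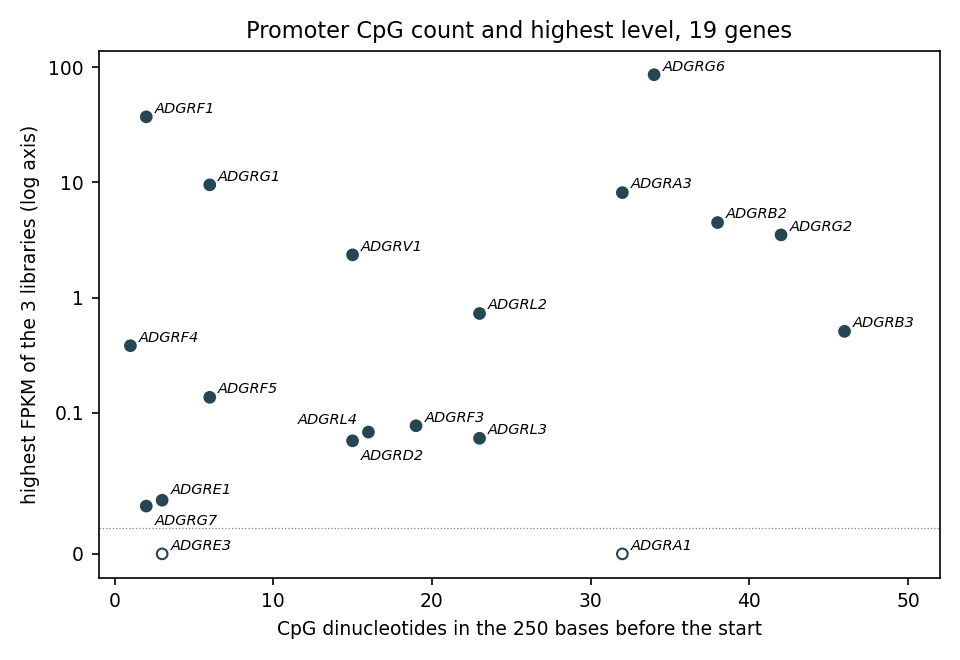
CpG dinucleotides in the 250 bases before the start, taking the richest window of each of 19 members, against the highest FPKM of the 3 libraries (log axis, open symbols for no counts). The points do not line up: ADGRF1 with 2 CpG and ADGRG6 with 34 both passed 30 FPKM, while ADGRB3 with 46 stayed at 0.510.

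Latrophilins bind teneurins and FLRT proteins on neighbouring cells, mainly at synapses. ADGRL1, the receptor of the spider toxin alpha-latrotoxin, had 3799 counts in LNCAP, against 2100 in PC3 and 1554 in DU145, or 28.1, 16.1 and 11.7 FPKM. It was 1.77-fold lower in PC3 than in LNCAP (1.68 to 1.87) and 2.45-fold lower in DU145 (2.31 to 2.60). Its relative ADGRL2 was much scarcer, with 90 counts in LNCAP, against 34 in PC3 and none in DU145. DU145 was at least 30.1-fold below LNCAP and PC3 2.59-fold below it (1.73 to 3.96). ADGRL3 had 2, 13 and 0 counts in the same order and did not reach 1 CPM. ADGRL4, a receptor of blood vessel endothelium, had 4 counts in LNCAP and none elsewhere.

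Of the group E receptors, which carry EGF-like domains and are typical of leukocytes, ADGRE5 was the one with a high level. ADGRE5, or CD97, binds CD55 and is also made by epithelial and tumour cells. It had 622 counts in LNCAP, against 2677 in PC3 and 1874 in DU145, or 7.26, 32.3 and 22.2 FPKM. Both castration-resistant lines stood above LNCAP, PC3 by 4.402-fold (4.03 to 4.81) and DU145 by 3.01-fold (2.74 to 3.30). ADGRE2, a receptor of myeloid cells, had 1, 13 and 36 counts. Its ratios to the single LNCAP count were 13.3 in PC3 (1.997 to 565) and 35.9 in DU145 (6.05 to 1458). ADGRE1 had 1 count in PC3, and ADGRE3 had none in any library. The 9 leukocyte markers summed to 5.31, 0.785 and 2.11 normalised CPM, with CD3E and FCGR3A at 0 counts in all 3 libraries and PTPRC, which encodes CD45, at 1, 7 and 0 counts. Among the list's myeloid genes, CD14 was 5.49-fold higher in DU145 than in LNCAP (1.86 to 21.9), with 4, 3 and 22 counts. ITGAM had 55, 0 and 4, CSF1R 14, 1 and 4, and LYZ 7, 0 and 0, each highest in LNCAP. CD68 had 2, 0 and 2. The part of such marker expression in the ADGRE2 and ADGRE5 counts was not tested.

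ADGRG1, or GPR56, guides the growth of the brain cortex and binds type III collagen and transglutaminase 2. It had 1312 counts in LNCAP, with 428 in PC3 and 268 in DU145, or 9.52, 3.21 and 1.97 FPKM. LNCAP was highest, with PC3 2.997-fold lower (2.69 to 3.35) and DU145 4.91-fold lower (4.30 to 5.62). Apart from ADGRG6 and ADGRG2, its relatives in group G were near or at 0. ADGRG3 had 4, 1 and 0 counts, ADGRG5 had 4 in DU145, ADGRG7 had 1 in DU145 and ADGRG4 had none.

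ADGRB2, a brain receptor related to the angiogenesis inhibitor ADGRB1, had 68 counts in LNCAP, against 394 in PC3 and 545 in DU145. On FPKM it stood at 0.551, 3.30 and 4.48. It was 5.93-fold higher in PC3 than in LNCAP (4.57 to 7.78) and 7.996-fold higher in DU145 (6.21 to 10.45), and is the member for which both lines passed 4-fold the same way with more than 3 counts in every library. ADGRB1 itself, which takes part in the uptake of dying cells, had 12, 3 and 12 counts and did not reach 1 CPM.

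ADGRD1, or GPR133, raises cyclic AMP and has been studied in glioblastoma, and its gene lies on chromosome 12 from 130953907 to 131141469 on the plus strand. It went the other way, with 100 counts in LNCAP, against 4 in PC3 and 1 in DU145. PC3 was 24.4-fold below LNCAP (9.26 to 91.5), and the ratio to the single DU145 count was 100.2 (17.6 to 3998). Its relative ADGRD2 had 5 counts in DU145 and none elsewhere.

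ADGRA3, or GPR125, a marker of spermatogonial stem cells, varied least among the members above 1 FPKM in every library. It had 728 counts in LNCAP, against 1160 in PC3 and 1114 in DU145, or 4.94, 8.14 and 7.68 FPKM. PC3 and DU145 could not be separated, at 1.07-fold (0.982 to 1.16), and were 1.63-fold (1.48 to 1.79) and 1.53-fold (1.39 to 1.68) above LNCAP. ADGRA2, or GPR124, a coactivator of Wnt7 signalling in brain vessels, had 27, 55 and 74 counts. It was 2.08-fold higher in PC3 (1.29 to 3.44) and 2.73-fold higher in DU145 (1.74 to 4.42) than in LNCAP. ADGRA1 had no counts in any library.

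ADGRV1, the very large receptor of the inner ear and retina that is altered in Usher syndrome, had 464 counts in LNCAP, with 1225 in PC3 and 332 in DU145. Because its exons add up to 33822 bases, this came to 0.862, 2.35 and 0.626 FPKM. PC3 was 2.70-fold above LNCAP (2.43 to 3.01) and 3.78-fold above DU145 (3.35 to 4.28), and DU145 was 1.40-fold below LNCAP (1.21 to 1.62).

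The remaining receptors of group F were low. ADGRF4, known from keratinocytes and enamel, had 16 counts in LNCAP, against 20 in PC3 and 5 in DU145. It was the member just inside the limit of 1 CPM, at 1.31 normalised CPM in PC3. ADGRF5, which regulates surfactant in the lung, was just outside it at 0.916, from 14 counts in PC3 and none elsewhere. ADGRF3 had 7, 1 and 7 counts and ADGRF2 had 2 in LNCAP. ADGRL4 and ADGRF5 are also endothelial genes. The endothelial markers summed to 11.2, 39.65 and 1.85 normalised CPM. PECAM1, at 0, 307 and 12 counts, and KDR, at 1, 290 and 4, made up nearly all of the PC3 sum. VWF and CLDN5 went the other way, at 144, 1 and 0 and at 26, 3 and 9 counts. CDH5 had 2, 0 and 3, TEK 2, 2 and 0, and TIE1 0, 3 and 1. The part of such marker expression in the 14 ADGRF5 counts was not tested.

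**Figure D3:**
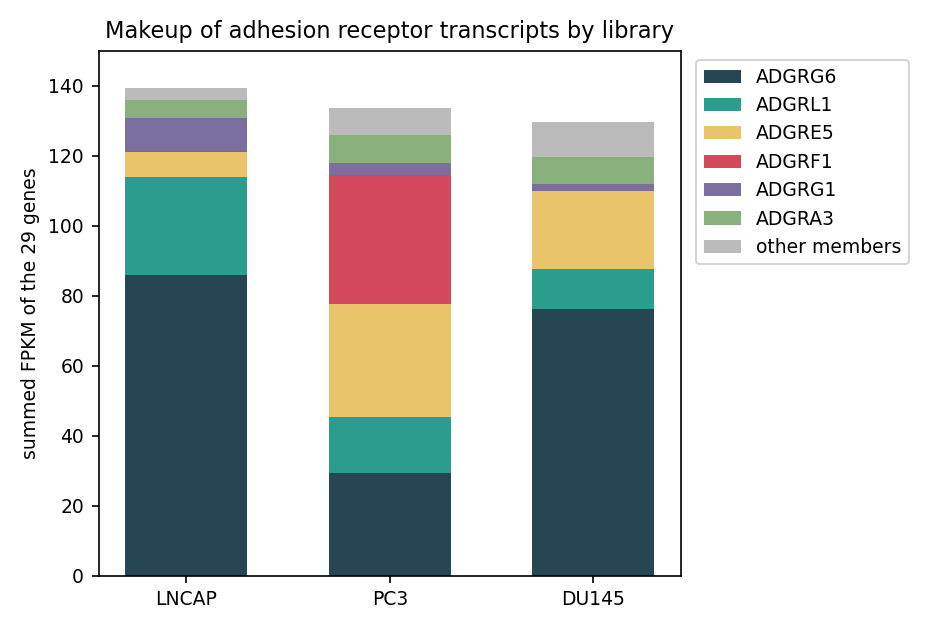
Summed FPKM of the 29 members in each library, with the 6 highest members coloured and the others in grey. The column heights lie between 129.6 and 139.4, while the ADGRG6 part is 61.6% in LNCAP and 58.7% in DU145 against 21.8% in PC3.

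The first comparison set PC3 against LNCAP. A gene was called when it was 4-fold apart, as a log2 ratio of 2 or more in size after adding 0.5 counts, with a counting interval that left out a ratio of 1. The words "at least 4-fold" name this call, and the interval may reach under 4-fold, as that of ADGRE2 did (1.997 to 565). ADGRB2, ADGRB3, ADGRE2, ADGRE5 and ADGRF1 were at least 4-fold higher in PC3 and ADGRD1 was lower, 6 of 15 members (40%) against 26.3% of the 18025 genes compared, 13% of them higher and 13.3% lower. The median log2 ratio over the 15 members was 0.70, and over all genes -0.006. ADGRE5 lay close to the limit at a log2 ratio of 2.14.

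The second comparison set DU145 against the same LNCAP library. ADGRB2, ADGRE2 and ADGRG2 were at least 4-fold higher and ADGRD1, ADGRF1, ADGRG1 and ADGRL2 lower, 7 of 15 members (46.7%) against 25.8% of all genes, 13.7% of them higher and 12.1% lower. The median log2 ratio was -0.20 for the members and -0.003 for all genes. Because the same LNCAP counts entered both comparisons, genes called in both, such as ADGRB2, ADGRD1 and ADGRE2, are not independent observations.

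Between the castration-resistant lines, ADGRB3, ADGRF1 and ADGRL2 were at least 4-fold higher in PC3 and ADGRG2 lower, 4 of 15 members (26.7%) against 19.1% of all genes, 8.54% of them higher and 10.6% lower. The median log2 ratio was 0.55 for the members and 0.02 for all genes. ADGRF4 was just under the limit at a log2 ratio of 1.93, from 20 counts against 5; without the added 0.5 counts the ratio was 4.10 (1.49 to 13.98), past 4-fold. ADGRA2, ADGRA3, ADGRF4, ADGRG6, ADGRL1 and ADGRV1 were called in none of the 3 comparisons. Of the 15 members, 3 (ADGRB3, ADGRD1 and ADGRE2) reached 1 normalised CPM in 1 library alone and so had to differ between libraries, which is why these shares only describe the family.

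**Figure D4:**
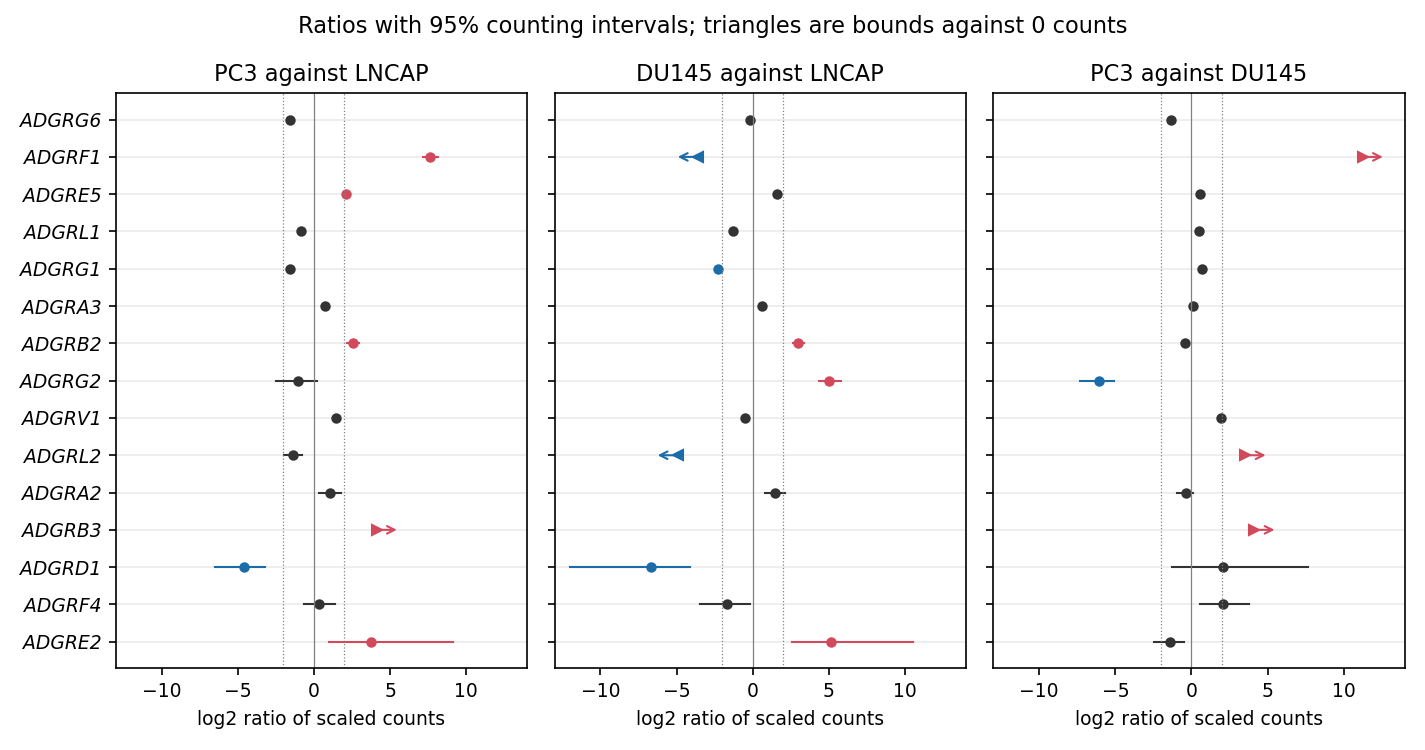
Log2 ratio of scaled counts for the 15 members in the 3 comparisons, without added counts; lines are 95% counting intervals, triangles with arrows are bounds against a library with no counts, dotted lines mark 4-fold, and red or blue marks calls above or below. ADGRF1 lies far to the right for PC3 in both of its comparisons and to the left for DU145 against LNCAP, while the intervals of ADGRD1 and ADGRE2 are wide, with libraries of 1 to 4 counts.

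The design also asks what PC3 and DU145 share against LNCAP. No member and no gene passed edgeR's quasi-likelihood test at an adjusted p of 0.05 with PC3 and DU145 as 2 libraries against 1 (0% of 18025 genes), a fit with 1 residual degree of freedom. It takes the difference between PC3 and DU145, which are different lines, as the spread, and assumes that the single LNCAP library varies likewise. The SEs and adjusted p below, those of DESeq2 included, rest on this spread and not on replicates of a line. At an unadjusted p under 0.05 there were 4 members and 1746 genes. The 4 were ADGRB2 (log2 difference 2.80, SE 0.79), ADGRE5 (1.89, SE 0.62), ADGRG1 (-1.90, SE 0.62) and ADGRD1 (-5.23, SE 1.49), with edgeR adjusted p from 0.441 to 0.495, and each differed from LNCAP in the same direction in both lines. DESeq2 called 1 member, ADGRB2 (adjusted p = 0.0305), and 1306 genes, and limma-voom called none, with 3 members and 1334 genes at an unadjusted p under 0.05. ADGRF1 was apart from LNCAP in opposite directions, and its log2 difference of 6.64 had an SE of 5.05.

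The family's genes form clusters on several chromosomes, and neighbours in a cluster did not share a level. On chromosome 6 ADGRF5, ADGRF1, ADGRF2 and ADGRF4 lie within 869.5 kb (46852512 to 47722021). In PC3, where ADGRF1 had 7062 counts, the other 3 had 14, 0 and 20. The genes between them, TNFRSF21 and CD2AP, had 5906 and 731 counts in PC3 against 1534 and 1943 in LNCAP. On chromosome 16 ADGRG1 had 1312 LNCAP counts between ADGRG5 with 0 and ADGRG3 with 4, within 147 kb (57542421 to 57689378). On chromosome 19 ADGRL1, ADGRE5, ADGRE3 and ADGRE2 lie within 630.8 kb (14147743 to 14778541), and LNCAP had the most ADGRL1 counts but the fewest of ADGRE5 and ADGRE2.

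How reads that match several places or overlapping genes were counted is not given in the sources used here, which makes some values uncertain. ADGRE2 shared 10.1% of its 32-base words with ADGRE5 and 15.7% of its exon bases with ZNF333 on the opposite strand, a gene with 182, 213 and 111 counts. ADGRE5 in turn shared 16.2% of its words with ADGRE2. ADGRA2 shared 23.1% of its exon bases with BRF2 on the opposite strand (180, 157 and 251 counts), more than the counts of ADGRA2 itself. ADGRL1 shared 5.57% with the antisense gene AC022098.1, and ADGRF5 shared words with its pseudogenes. ADGRG6, ADGRB2 and ADGRB3 shared no such word with another gene, and ADGRF1 shared 3.78%.

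Ligands and signalling partners were read from 9 lists of 75 genes, 67 of which reached 1 CPM in some library. Of the 14 genes on the latrophilin ligand list 11 were compared, and the lines differed in which ones were high. Beside teneurin, FLRT and neurexin genes the list holds UNC5A, UNC5B, UNC5C and UNC5D, which encode netrin receptors. Its counts and medians are therefore not those of ligand genes alone. In PC3 against LNCAP 4 were at least 4-fold higher and 4 lower, in DU145 2 were higher and 6 lower, where 26.3% and 25.8% of all genes were called either way, with median log2 ratios of -0.93 and -2.41 (-1.59 with genes at 0 counts set to their bound). TENM4, a teneurin gene, had 9 counts in LNCAP, with 2047 in PC3 and none in DU145, a 232.6-fold excess of PC3 over LNCAP (122 to 509). TENM1 was highest in LNCAP, with 1214, 177 and 0 counts, and TENM3 in PC3, with 2, 206 and 9. DU145 had 0 to 9 counts of these 3 teneurins. The 2 list genes called higher in DU145 than in LNCAP were FLRT3 and UNC5A. FLRT3 was at least 15.6-fold higher and UNC5A 7.20-fold higher (4.10 to 13.6). UNC5B, a netrin receptor that binds FLRT proteins, had 165, 1 and 9 counts. The list also holds its relatives UNC5A, UNC5C and UNC5D, and both UNC5B and UNC5C were among the 6 called lower in DU145.

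Ligand genes of the other adhesion receptors stood mostly above LNCAP in both castration-resistant lines. Of 11 compared, 10 were at least 4-fold higher in PC3 and none lower, and 9 were higher and 1 lower in DU145. Of all genes 13% were higher and 13.3% lower in PC3, and 13.7% higher and 12.1% lower in DU145. The list's median log2 ratios were 3.25 and 4.09. CD55, the ligand of ADGRE5, had 45 counts in LNCAP, against 4548 in PC3 and 862 in DU145. This was 103-fold higher in PC3 (77.1 to 142) and 19.1-fold in DU145 (14.2 to 26.4), the same order of lines as for ADGRE5. TGM2, the transglutaminase that binds ADGRG1, had 16, 689 and 18578 counts, 1158-fold above LNCAP in DU145 (713 to 2027), in the reverse order of ADGRG1. COL4A1, a type IV collagen gene, had 0, 972 and 356 counts, so that PC3 was at least 331-fold and DU145 at least 118-fold above LNCAP. Its partner chain COL4A2 had 21, 2085 and 675 counts, 101.5-fold higher in PC3 (66.25 to 164) and 32.1-fold in DU145 (20.8 to 52.15). PRNP, the prion protein gene, had 1293, 10418 and 2397 counts and was 8.24-fold higher in PC3 (7.78 to 8.74). LAMA2, a gene of laminin-211, had 3, 32 and 91 counts and was called higher in both lines. ADGRG6, the receptor described for these ligands, had 11575, 3811 and 10115 counts, close in LNCAP and DU145. COL3A1, the type III collagen gene, went against the list in DU145 at 15.5-fold lower, with 31, 239 and 2 counts. It also encodes a ligand of ADGRG1, and its order of lines was neither that of ADGRG1 nor its reverse. A relation between receptor and ligand levels was not tested, and orders of 3 single libraries are too few to show one.

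**Figure D5:**
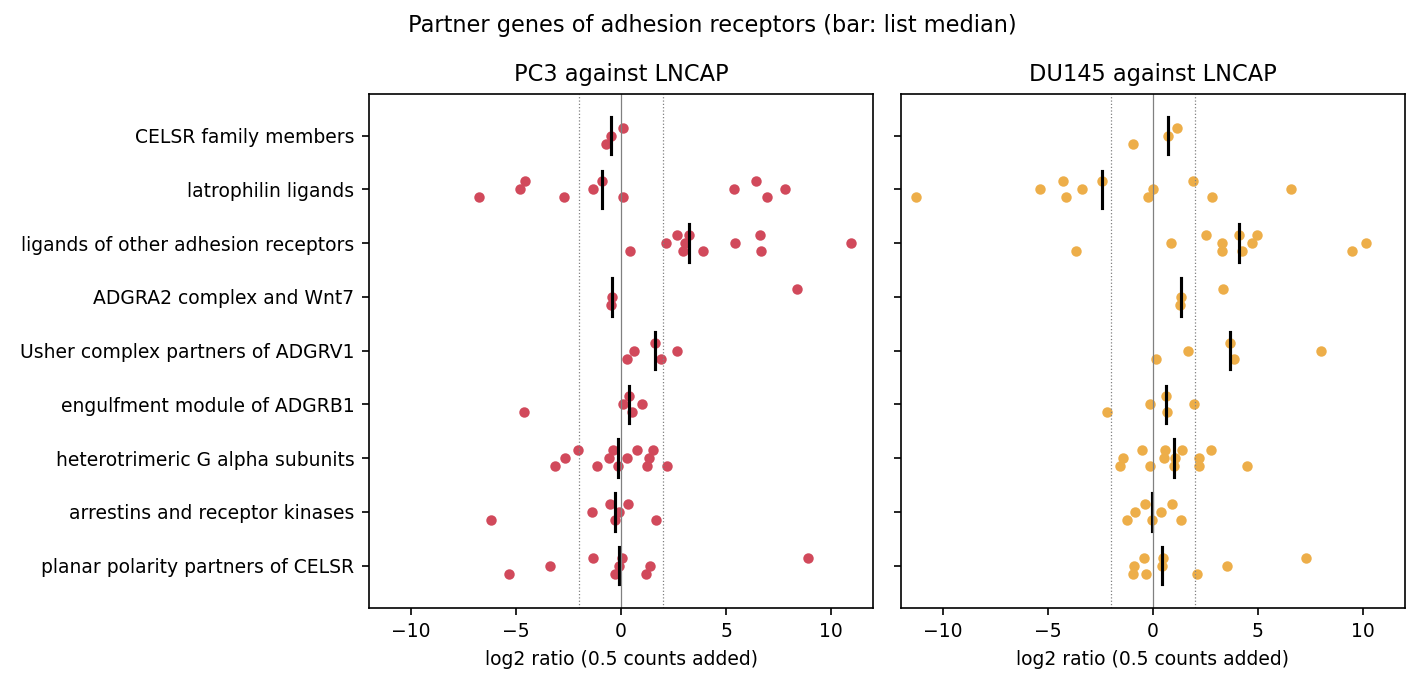
Log2 ratios (0.5 counts added) of the 67 partner genes compared, by list, for PC3 and DU145 against the shared LNCAP library; each point is a gene, the black bar is the list median and dotted lines mark 4-fold. The ligands of receptors other than latrophilins sit mostly to the right, with medians of 3.25 and 4.09. The list labelled latrophilin ligands, UNC5 receptor genes included, spreads to both sides.

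Partners of ADGRV1, ADGRA2 and ADGRB1 each included genes that differed between the lines. In PC3 against LNCAP, 1 of 5 ADGRV1 partners and 1 of 3 ADGRA2 partners were called higher, and 1 of 5 ADGRB1 partners lower. In DU145 against LNCAP, 3, 1 and 1 were called in the same lists and directions. Over all genes 26.3% and 25.8% were called either way, and lists this short only describe their genes. Of the 6 genes of the Usher protein complex that holds ADGRV1 in place, 5 were compared. WHRN, its scaffold, was 6.27-fold higher in PC3 than in LNCAP (5.49 to 7.19), with 252, 1545 and 286 counts. MYO7A and USH1C were highest in DU145, at 16, 19 and 245 and at 0, 1 and 127 counts, as was USH1G at 1, 5 and 19. For ADGRA2, its partner RECK had 158, 112 and 404 counts and WNT7B 846, 613 and 2071, while WNT7A had 1, 488 and 15. In the engulfment module that ADGRB1 uses, ELMO3 was 25.4-fold lower in PC3 (18.3 to 36.25) and 4.48-fold lower in DU145 (3.86 to 5.21), and ELMO2, DOCK1, DOCK5 and RAC1 were called in neither.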

How the data were processed

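RNA of LNCAP, PC3 and DU145 cells, extracted with TRIzol and a column kit, was sequenced from 4 ug of total RNA per library, per the labels' protocols. The authors deposited raw read counts per gene, whole numbers without normalization. They also deposited FPKM values, each of which equals the same count over gene length and a constant of its library (1.034, 1.005 and 0.988 times the count total). Per the submitters' processing notes, TopHat2 2.0.9, Cuffdiff 2.1.1, Bowtie2 2.0.6 and Cufflinks 2.1.1 are listed, without roles. The counting program, strand setting and build were not given in the sources used here, but all 58735 gene identifiers and positions match GENCODE release 29, so GRCh38 is used. The media are not tied to single lines in the labels.

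The TMM factors that scaled the counts were 1.016, 0.998 and 0.987 (edgeR 4.0.16, R 4.3.3), and comparisons covered the 18025 genes that reached 1 CPM somewhere. Ratios carry exact 95% conditional binomial (Clopper-Pearson) intervals (scipy 1.17.1). A bound against 0 counts uses 3 counts in that library and appears as "at least", apart from "at least 4-fold", which names the call. Pairs with 3 counts or fewer on both sides have no fold. Without molecular identifiers, reads need not be separate molecules. The class comparison used edgeR's quasi-likelihood test with Benjamini-Hochberg adjustment, with DESeq2 1.42.0 and limma-voom (limma 3.58.1) as alternatives. The calls were tested on simulated data. Other alternatives were scaling, filter, added counts, FPKM ratios and fold threshold. Shared sequence was counted as exact 32-base words over GENCODE exons, and promoters came from RefSeq (GRCh38.p14), matched by symbol for 19 members. Protein sequences were not used here. Every member is named; members at 1 CPM or more are described with their ratios and the others by counts. From each partner list up to 4 called genes with the largest near interval bound were to be named, with any against the list. Further list genes, such as PRNP, LAMA2, GNAI2, GNA12 and GNA13, were picked with their values in view. The members and lists were chosen with earlier results of these data known. Besides the 9 partner lists in the text, 1 more is not reported here.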

Additional observations from a re-analysis of the deposited data

Results flagged for a closer look

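ADGRF1 differed from LNCAP in opposite directions in the castration-resistant lines. Its log2 ratio, with 0.5 counts added, was 7.63 in PC3 and -6.19 in DU145. The second value is set against 0 DU145 counts and depends on what is added: it was -3.04 with 5 counts added and -1.50 with FPKM plus 0.1, where the call was lost. Both ratios share the LNCAP library with its 36 counts, each line has 1 library, and the difference between the 2 ratios was not tested.

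Reads were also listed for loci named after members but outside the symbol rule. ADGRD1-AS1, a noncoding gene on the strand opposite ADGRD1, had 43 counts in LNCAP and none in PC3 or DU145, above the 3 counts that a count of 0 allows. It shares 0.741% of the ADGRD1 exon bases, and ADGRD1 had 100, 4 and 1 counts. The processed pseudogene ADGRF5P1 had 20 counts in LNCAP, with 50 in PC3 and 1 in DU145. Its parent gene ADGRF5 had 0, 14 and 0.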

How the results depend on the processing

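With 1 library per line, counting error is the only error measured. DESeq2 size factors, library totals and totals without mitochondrial genes left the 6 counts of members at least 4-fold apart unchanged, with the same members named. Without a filter on low counts, 5 of 26 members were higher and 1 lower in PC3 than in DU145 (3 and 1 as reported). Over all genes 14.1% were then called either way. With a minimum of 5 CPM, 3 of 11 members were higher and 1 lower in PC3 than in LNCAP (5 and 1 as reported). Over all genes 22.0% were then called either way. With 5 counts added, ADGRE2 was no longer called in PC3 against LNCAP. With FPKM plus 0.1 it was called in neither comparison with LNCAP, ADGRF1 was no longer called in DU145 against LNCAP, and ADGRL2 no longer in PC3 against DU145. Ratios of FPKM with 1 added, which shrink low genes, gave 2 higher and 0 lower in PC3 against LNCAP. They gave 1 higher and 0 lower in DU145 against LNCAP, and 1 higher and 1 lower in PC3 against DU145. At 2-fold, 7 of the 15 members were higher and 4 lower in PC3 than in LNCAP. In DU145 against LNCAP 5 were higher and 6 lower, and in PC3 against DU145 5 were higher and 3 lower. At 8-fold, 3 were higher and 1 lower in PC3 than in LNCAP. In DU145 against LNCAP 2 were higher and 3 lower, and in PC3 against DU145 3 were higher and 1 lower. Over all genes FPKM with 1 added called 9.18%, 8.61% and 5.53%, 2-fold 46.2%, 45.98% and 37.8%, and 8-fold 18.2%, 17.5% and 11.98%, in the order of the 3 comparisons. LNCAP had 13 members at 1 normalised CPM, 8 at 5 CPM and 5 at 1 FPKM. DESeq2 called 1 member and 1306 genes for PC3 and DU145 against LNCAP, where edgeR called 0; the cause was not tested. The log2 ratios of single members moved beyond their counting interval for 26 of 45 values with FPKM plus 1, 13 with FPKM plus 0.1, 7 with 5 counts added, 3 without mitochondrial genes, 1 with totals and 0 with DESeq2 size factors. No called member reversed its direction under these alternatives. Leaving out PC3 or DU145 leaves the class test no residual degree of freedom, and the pairwise ratios are then what remains. No paired analysis was possible because each line has 1 library and the labels carry no replicate numbers.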

Other observations

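Among the genes that relay adhesion receptor signals, single members stood apart. Of 13 G protein alpha subunit genes, 1 was at least 4-fold higher and 2 lower in PC3 than in LNCAP, and 4 were higher and none lower in DU145, with median log2 ratios of -0.17 and 1.005. Over all genes 26.3% and 25.8% were called either way, so the shares called either way are near those of all genes. The 4 DU145 calls were all higher, where 13.7% of all genes were higher and 12.1% lower. In PC3 against DU145, 1 of the 13 was higher and 4 were lower, where 19.1% of all genes were called either way. GNAI2, of the class that lowers cyclic AMP, was 4.54-fold higher in PC3 (4.24 to 4.86) and 4.58-fold in DU145 (4.28 to 4.91), with 1025, 4548 and 4708 counts in LNCAP, PC3 and DU145. GNAQ had 359, 55 and 1645 counts, and PC3 was 29.2-fold below DU145 (22.3 to 38.9). GNA15 stood at 0.256, 0 and 6.45 normalised CPM, GNAL had 48, 31 and 329 counts, and GNAO1 had 23, 5 and 61, with DU145 highest in each. GNA12 and GNA13 were 2.54-fold and 2.31-fold higher in PC3 and 2.102-fold and 2.01-fold in DU145, under the 4-fold limit. Of 7 arrestin and receptor kinase genes, GRK3 alone was called: it had 406 counts in LNCAP, against 5 in PC3 and 543 in DU145, and PC3 was 79.4-fold below LNCAP (33.7 to 246).

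CELSR1, CELSR2 and CELSR3 are adhesion receptors of planar cell polarity that do not carry the ADGR symbol. CELSR1 had 1091, 1144 and 1814 counts, CELSR2 had 1197, 700 and 635, and CELSR3 had 352, 246 and 799, and none was 4-fold apart in any comparison. Of their 9 polarity partners, PRICKLE1 had 1, 703 and 238 counts and VANGL2 had 20, 0 and 239. PC3 was at least 77.7-fold below DU145 in VANGL2. PRICKLE2 had 48, 4 and 25 counts, and FZD6 had 727, 1611 and 3150. VANGL1, FZD3, DVL1, DVL2 and DVL3 were called in no comparison. Of the 9, 1 was higher and 2 lower in PC3 than in LNCAP, and 3 were higher and 0 lower in DU145. In PC3 against DU145, 0 were higher and 2 lower. Over all genes 26.3%, 25.8% and 19.1% were called either way in these comparisons, so the list is near all genes.

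Stromal markers, the last list read, summed to 37.6, 48.35 and 10.3 normalised CPM, most of it from COL1A1 at 518, 488 and 148 counts. COL3A1 had 31, 239 and 2, LUM had 0 in all 3 libraries and DCN had 3, 0 and 0.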
